A study of Mus musculus with 15 samples.

Results

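Solute carriers are the membrane transporters of the Slc and Slco gene families, and 146 of the 8996 genomic regions bound by NRL in this mouse retina table were assigned to one of them. The regions are peaks from CUT&RUN, an assay that cuts and releases the DNA around an antibody-marked protein, so that the fragments show where it sat. Members were the peaks whose gene symbol in the authors' annotation began with Slc and a number or with Slco, leaving out Slc24a1, Slc16a1, Slc2a1 and Slc6a17. They lay at 109 genes, of which 84 had 1 peak, 17 had 2, 6 had 3 and 2 had 5.

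All libraries were made with an anti-NRL antibody from dissociated whole retina of C57BL/6J mice at postnatal day 2 (P2), 4 (P4), 10 (P10) or 28 (P28), with no genetic change or treatment in any group. Values existed for 2 libraries of each age, numbered 1 and 4 for P10 and 3 and 4 for every other age, and 7 further libraries in the labels were not analysed here. Whether replicates were different animals is not stated, and the p-values therefore measure only the spread between these libraries, which may be technical. Each comparison asked how NRL occupancy at the transporter genes differed between ages, and no library without NRL antibody was analysed here.

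NRL is a basic leucine zipper factor of the Maf family that directs retinal precursors to the rod fate and, with the homeodomain protein CRX, sustains rod genes. Rods depend on transporters for lactate, amino acids, taurine, ions and metals, and on mitochondrial carriers that feed the inner segment. In the mouse retina rods are born around birth and build their outer segments after the first postnatal week. Because the samples were whole retina, a larger share of rods and more NRL bound per cell cannot be told apart.

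Values are RPKM, reads per kilobase of peak divided by the authors' library scale, rebuilt from recovered whole reads with each peak's own width. Reads in peaks ranged from 49430 to 227692 per library, with both P10 libraries highest. The solute carrier peaks had a median of 63 reads over all 8 libraries together, and the least covered had 16. A peak of median width with 3 reads, the limit that a count of 0 allows, would have between 1.16 and 1.77 RPKM, depending on the library, and this covers counting error only. The P4 libraries stood apart from each other, with a median solute carrier level of 2.39 RPKM in replicate 3 and 4.63 RPKM in replicate 4. The same medians were 1.89 and 1.85 RPKM at P2, 5.96 and 6.16 RPKM at P10, and 3.88 and 3.36 RPKM at P28. Between replicates the solute carrier values on the log2(RPKM + 1) scale had a Pearson correlation across peaks of 0.47 for the P2 pair, 0.63 for P4, 0.86 for P10 and 0.75 for P28. All 6 rod marker genes had a peak assigned to them within 50 kb. None of the 4 markers each of Müller glia, pigment epithelium, and microglia and vessels had one. These are NRL peaks, so their absence does not show that a cell type was missing from the samples.

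Of the 385 protein-coding solute carrier genes in RefSeq, the 4 left out not counted, 109 had a peak (28.3%), against 6251 of all 21896 protein-coding genes (28.5%). NRL peaks were thus assigned to transporter genes about as often as to coding genes at large. Within 1 kb of a start site lay 75 of the 146 peaks, or 51.4% (95% Wilson interval 43.3 to 59.3), against 56.8% of all other peaks. By the authors' annotation 71 lay in promoters, 40 in introns, 29 in distal intergenic sequence, 4 in exons and 2 downstream of a gene. Assignment was to the nearest start site, and 15 peaks lay more than 50 kb from it.

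The promoter stretches that follow are the parts of 6 peaks next to a start site, shown because each peak was among the 8 with the highest mean signal, was called between 2 ages, or held a MAF core in the stretch. Only peaks that overlapped a RefSeq promoter window could enter, which leaves out start-site peaks at Slc11a1, Slc25a12 and Slc3a2, among others. By the same rule 2 further stretches, at Slc25a38 and Slc46a3, were found. Between 2 ages both peaks were called for P28 against P2 only (adjusted p by limma 0.042 and 0.040), and the stretches, which held no searched motif, are not printed. Each is the stretch of the peak upstream of a RefSeq start, at most the 120 bases nearest to it, 5′ to 3′ on the gene's strand, in GRCm38.p6. Capitals mark a match on either strand to TGCTGA, the core of each arm of the MAF recognition element that NRL binds, to TGANTCA, the AP-1 site, or to TAATCC, the CRX site.
Slc25a42, chr8:70212304-70212423 (-): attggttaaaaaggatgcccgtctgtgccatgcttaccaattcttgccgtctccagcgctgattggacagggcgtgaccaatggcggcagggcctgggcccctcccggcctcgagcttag
Slc27a1, chr8:71570474-71570593 (+): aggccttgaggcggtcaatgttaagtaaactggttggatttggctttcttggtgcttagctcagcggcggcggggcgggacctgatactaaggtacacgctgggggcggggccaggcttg
Slco4a1, chr2:180460858-180460977 (+): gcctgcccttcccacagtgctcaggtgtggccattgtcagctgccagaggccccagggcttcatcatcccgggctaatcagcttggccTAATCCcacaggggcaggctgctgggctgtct
Slc25a33, chr4:149774268-149774387 (-): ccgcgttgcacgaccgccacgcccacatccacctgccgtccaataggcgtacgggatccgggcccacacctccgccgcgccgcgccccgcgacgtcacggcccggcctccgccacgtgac
Slc4a7, chr14:14718664-14718783 (+): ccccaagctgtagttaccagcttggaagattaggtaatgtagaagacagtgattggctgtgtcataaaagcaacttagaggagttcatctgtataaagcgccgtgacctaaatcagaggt
Slc25a5, chrX:36795477-36795596 (+): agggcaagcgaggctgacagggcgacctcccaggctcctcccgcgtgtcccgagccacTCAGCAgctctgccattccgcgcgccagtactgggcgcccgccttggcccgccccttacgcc

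The Slc25a42 and Slc27a1 stretches, from the promoter peaks with the highest mean signal among those matched, held none of the searched motifs. The Slco4a1 stretch, at the second start site of that gene, held a CRX site, and the Slc25a5 stretch a reverse-strand MAF core. Over 300-base RefSeq promoter windows, 250 bases before to 50 after a start, 50 windows of solute carrier genes overlapped one of the peaks. TGCTGA was in 5 of them (10%), against 16.1% of the 4796 windows that overlapped any peak and 19.5% of all 32851 windows. TGANTCA was in 4 of the 50 (8%), against 3.94% of the windows with any peak and 7.81% of all. TAATCC was in 5 of the 50 (10%), against 6.55% and 7.06%. Start-site peaks that overlapped no such window are not in these shares. A match describes letters and is not a shown binding site.

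The authors deposited 1 peak list per age, and most transporter peaks were in the P10 list only. Counting any shared base, 13 of the 146 peaks (8.90%) were in the P2 list, 40 (27.4%) in the P4 list, 125 (85.6%) in the P10 list and 45 (30.8%) in the P28 list. For all 8996 peaks the shares were 13.5%, 35%, 83.2% and 38.6%, in the same order of ages. The P10 list alone held 78 of the solute carrier peaks (53.4%), against 41.9% of all peaks. The P4 list alone held 8, the P28 list alone 10 and the P2 list alone none, and 8 peaks were in all 4 lists. Those lists differ in length, from 1221 peaks at P2 to 7520 at P10.

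**Figure D1:**
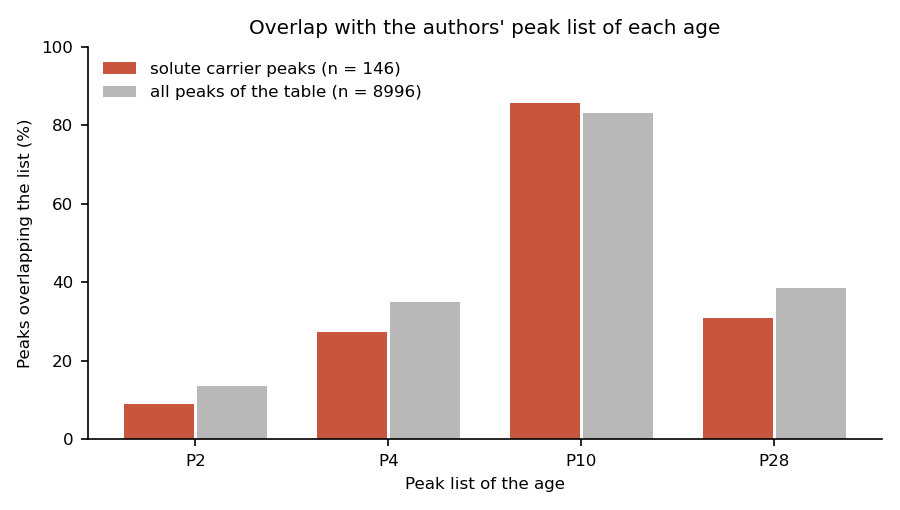
Percentage of peaks that overlap the authors' peak list of each age by at least 1 bp, for the 146 solute carrier peaks (red) and all 8996 peaks (grey). The P10 bars are the tallest, at 85.6% and 83.2%, and the solute carrier bars are lower than the grey bars at the other 3 ages.

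Between P10 and P4, 35 solute carrier peaks rose and 4 fell. The test was limma with Benjamini-Hochberg adjustment over all peaks, fitted to log2(RPKM + 1) with all 8 libraries, and a call is an adjusted p under 0.05. Among all peaks 15.6% were called higher and 1.51% lower. Between P28 and P10, 30 fell and 1 rose, where 20.7% of all peaks were called lower and 1.29% higher. Between P28 and P2, 20 rose and 5 fell, with 9.64% and 3% in the background. Differing at any age by the F test were 75 of the 146 (51.4%), against 45.9% of all peaks. The comparisons share libraries, so their calls are not independent. Every peak of the table was in at least 1 age's list, and 125 of the 146 were in the P10 list. Entry through that list favours calls higher at P10 than at P4 and lower at P28 than at P10. These counts are therefore not independent of how the peaks were chosen, for all peaks as for these.

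Between P4 and P2 limma called 0 of the 146 peaks, and 0% of all peaks. At an unadjusted p under 0.05, 30 solute carrier peaks were higher and 0 lower, against 14.4% and 0.778% of all peaks. limma-voom on the recovered reads with TMM scaling called 0 of the 146 and 0.3% of all peaks. With limma the number called was 1 with a pseudocount of 0.1 and 2 with a replicate block. It was also above 0 in several fits with 1 library left out. Some of these hold only 1 library of P2 or P4, while those without a P28 library keep both libraries of P2 and of P4. Shares of all peaks in those fits are not given, so they do not tell solute carrier peaks from the rest of the table.

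Much of each shift was shared by the whole table. The median log2 difference of all peaks was 0.73 for P10 against P4, −0.69 for P28 against P10 and 0.57 for P28 against P2, and centring each library on its median brought these to 0.02, −0.09 and −0.01. The solute carrier medians were 0.84, −0.69 and 0.72, and 0.13, −0.09 and 0.14 with centred libraries. With centring, 9 of the 35 peaks higher at P10 than at P4 kept their call, and all 4 lower ones did. Of the calls for P28 against P10, 13 lower and the 1 higher were kept, and of those for P28 against P2, 9 higher and 5 lower. Centred counts over all members were 9 higher and 6 lower, 5 and 13, and 9 and 7, against 2.88% and 3.26%, 4.28% and 8.56%, and 3.27% and 7.26% of all peaks. With limma-voom and TMM scaling (trimmed mean of M-values) the solute carrier calls for P10 against P4 were 11 higher and 9 lower, against 4.64% and 7.26% of all peaks. For P28 against P10 they were 13 higher and 12 lower, against 10.9% and 9.95%, and for P28 against P2 6 higher and 6 lower, against 2.89% and 7.14%.

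Many of these calls were lost when 1 library was left out. Such a fit has only 1 library at that age, and shares of all peaks in it are not given. Of the 39 calls for P10 against P4 (17.1% of all peaks were called), the number fell to 8 when P4 replicate 3 was dropped, to 8 when P10 replicate 1 was and to 10 when P10 replicate 4 was. For P28 against P10 the 31 calls (21.9% of all peaks) became 6 and 13 without P10 replicates 1 and 4, and 16 without P28 replicate 4. For P28 against P2 the 25 (12.6% of all peaks) became 14 without P2 replicate 4, 13 without P28 replicate 3 and 15 without P28 replicate 4. The 75 peaks that differed at any age became 43 without P10 replicate 1 and 44 without P10 replicate 4. Whichever library was left out, 3 calls stood for P10 against P4, 6 for P28 against P10 and 5 for P28 against P2, and the peaks concerned are given with all 8 libraries. Of these 14 calls, centring ended none. A pseudocount of 0.1 ended 3 (both calls of the Slco4a1 intronic peak and 1 of a Slc22a12 peak), the values as deposited 2 (Slc22a12 and Slc12a9) and limma-voom 1 (Slc4a7). Of all 95 calls between 2 ages, the pseudocount of 0.1 ended 75, the values as deposited 71, limma-voom 56 and centring 54. With that pseudocount the only call left for P10 against P4 was the Slc39a13 peak.

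Peaks away from start sites carried most of the calls. Of the 71 peaks further than 1 kb from a start site, 54 differed at any age (76.1%, against 69.2% of all such peaks), and of the 75 within 1 kb, 21 did (28%, against 28.1%). Among the 71 peaks further than 1 kb, 28 were higher and 4 lower at P10 than at P4, 1 higher and 24 lower at P28 than at P10, and 13 higher and 4 lower at P28 than at P2. Of all 3890 such peaks, 26% and 3.24%, 1.93% and 36%, and 12% and 6.43% were called in these directions. Among the 75 within 1 kb, 7 were higher and 0 lower at P10 than at P4, 0 higher and 6 lower at P28 than at P10, and 7 higher and 1 lower at P28 than at P2. The background there was 7.72% and 0.196%, 0.803% and 8.95%, and 7.83% and 0.392% of 5106 peaks. With centred libraries the distal calls were 8 higher and 6 lower, 2 and 9, and 8 and 6 in the same order of comparisons, against 5.48% and 6.76%, 3.75% and 15.9%, and 5.37% and 14.2% of all distal peaks. The centred proximal calls were 1 higher and 0 lower, 3 and 4, and 1 and 1, against 0.901% and 0.588%, 4.68% and 2.94%, and 1.66% and 1.98%. The median difference for P10 against P4 was 1.25 for distal and 0.58 for proximal solute carrier peaks, and 0.53 and −0.13 with centred libraries, so that the proximal median changes sign. For all peaks these medians were 0.98 and 0.62, and 0.27 and −0.09 with centred libraries. The proximal median for P28 against P10 changed sign too, at −0.41 and, centred, 0.19, where all proximal peaks had −0.42 and 0.19.

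**Figure D2:**
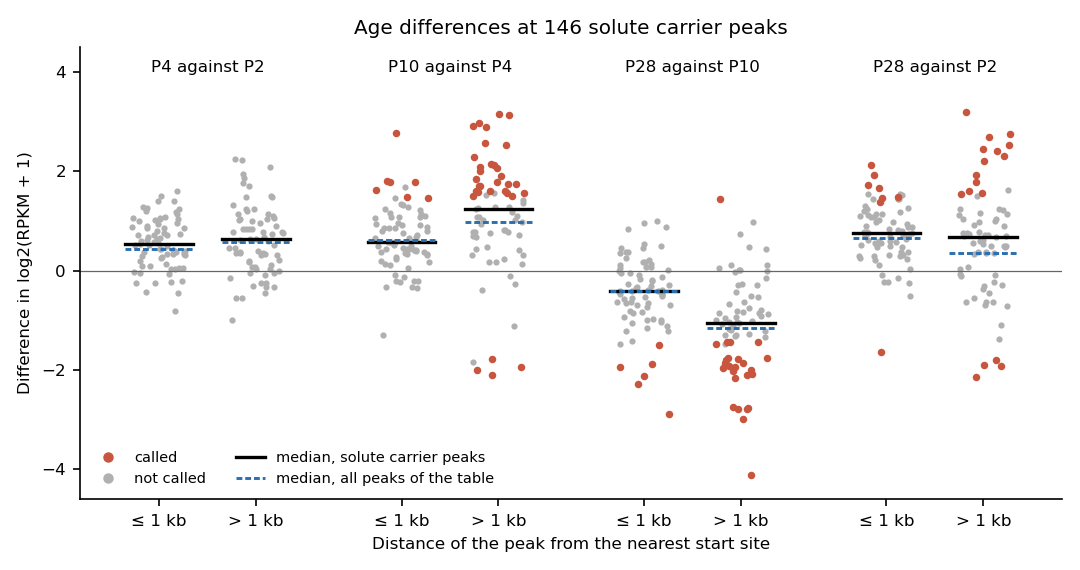
Difference in log2(RPKM + 1) at each of the 146 solute carrier peaks for the 4 age comparisons, split at 1 kb from the nearest start site; red points passed limma at an adjusted p under 0.05, black lines are solute carrier medians and dashed blue lines medians of all peaks. The red points lie mostly in the columns further than 1 kb, above 0 for P10 against P4 and below 0 for P28 against P10.

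Slco4a1 encodes an organic anion transporter of the OATP family that carries thyroid hormone and prostaglandins, and its 5 peaks on chromosome 2 span the first start to beyond the end of the gene. The intronic peak at 180469593 to 180469950 had 0.704 and 0 RPKM at P2, 3.55 and 7.18 RPKM at P4, 60.7 and 35.9 RPKM at P10, and 4.76 and 7.77 RPKM at P28. Both P10 libraries were several times above every other library. Its log2 difference was 2.97 ± 0.55 (SE) for P10 against P4 and −2.75 ± 0.55 for P28 against P10 (adjusted p by limma 0.0015 and 0.0014). Both calls stood without any single library, and both were lost with a pseudocount of 0.1 (0.106 and 0.0791). P28 was also above P2, with 28 reads against 2, a ratio of 14.7 (95% counting interval 3.71 to 127). That call, at an adjusted p by limma of 0.0050, was lost without P2 replicate 4 (adjusted p = 0.0676).

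A second intronic Slco4a1 peak, 973 bp from the first start at 180457307 to 180457569, had 2.39 and 2.17 RPKM at P2, 3.38 and 18.5 RPKM at P4, 62.9 and 60.7 RPKM at P10, and 15.9 and 11.2 RPKM at P28. The P4 replicates differed from each other more than the P28 ones did. The mean was 61.8 ± 1.55 RPKM at P10 and 10.9 ± 10.7 RPKM at P4 (SD, n = 2 each), with a log2 difference of 2.77 ± 0.61 (SE) and an adjusted p by limma of 0.0044, or 0.0575 without P10 replicate 1. The peak was lower at P28 than at P10 (adjusted p by limma 0.015) and higher at P28 than at P2 (0.023). These lost their calls without P10 replicate 1, P10 replicate 4 and P28 replicate 4 (0.114, 0.0924 and 0.0943), and without P2 replicate 4 and P28 replicate 3 (0.0884 and 0.122).

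The peak at the second Slco4a1 start, whose sequence with the CRX site is printed above, had 2.18 and 0.471 RPKM at P2, 1.57 and 1.06 RPKM at P4, 6.24 and 8.03 RPKM at P10, and 8.43 and 4.46 RPKM at P28. Its level at P28 was close to that at P10, with a log2 difference of −0.17 ± 0.49 (SE), unlike the intronic peaks. It was called higher for P10 against P4 (adjusted p by limma 0.016) and for P28 against P2 (0.023), but neither call held with centred libraries (0.21 and 0.16). The first was also lost without P4 replicate 3, P10 replicate 1 or P10 replicate 4 (0.0937, 0.0833 and 0.122), and the second without P2 replicate 4 or P28 replicate 3 (0.251 and 0.17). The peak at the first start had 10.9 and 12.1 RPKM at P10 and 2.92 and 6.21 RPKM at P4 and was not called in any comparison. The remaining peak, beyond the gene, rose at P10 over P4 by 2.28 ± 0.49 (SE, adjusted p by limma 0.0039, and 0.031 with centred libraries). That call was lost without P4 replicate 3 or P10 replicate 1. Its P28 against P10 difference, −0.83 ± 0.49, was not called. Its call for P28 against P2 (adjusted p by limma 0.038) was lost with centred libraries (0.137).

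Slc6a6 encodes the taurine transporter, whose loss in mice leads to photoreceptor degeneration, and 2 of its 3 peaks lie in its introns on chromosome 6. The intronic peak 1749 bp from the annotated start, at 91685898 to 91686195, had 2.11 and 1.28 RPKM at P2, 1.28 and 1.92 RPKM at P4, 20.1 and 10.0 RPKM at P10, and 17.2 and 12.1 RPKM at P28. The P10 and P28 libraries overlapped with each other and lay above all P2 and P4 libraries. The mean was 14.6 ± 3.58 RPKM at P28 and 1.70 ± 0.591 RPKM at P2 (SD, n = 2 each), with a log2 difference of 2.53 ± 0.52 (SE) and an adjusted p by limma of 0.0029. That call held without any single library. For P10 against P4 the difference was 2.57 ± 0.52 with an adjusted p of 0.0027 by limma, or 0.0825 without P10 replicate 1.

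The other intronic Slc6a6 peak, 6140 bp from the annotated start at 91707797 to 91708036, had 0.525 and 0.793 RPKM at P2, 1.59 and 4.16 RPKM at P4, 35.5 and 19.2 RPKM at P10, and 6.45 and 15.7 RPKM at P28. It had 33 reads at P28 against 2 at P2, a ratio of 17.3 (95% counting interval 4.43 to 149), and this call stood without any single library (adjusted p by limma 0.0024). P10 exceeded P4 by 2.89 ± 0.56 (SE) on the log2 scale, with an adjusted p by limma of 0.0020, or 0.0542 without P4 replicate 3. For P28 against P10 the difference was −1.28 ± 0.56 and was not called. The third peak, 20262 bp upstream, had 11.9 and 7.56 RPKM at P28 and 1.94 and 2.93 RPKM at P2 and was not called.

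**Figure D3:**
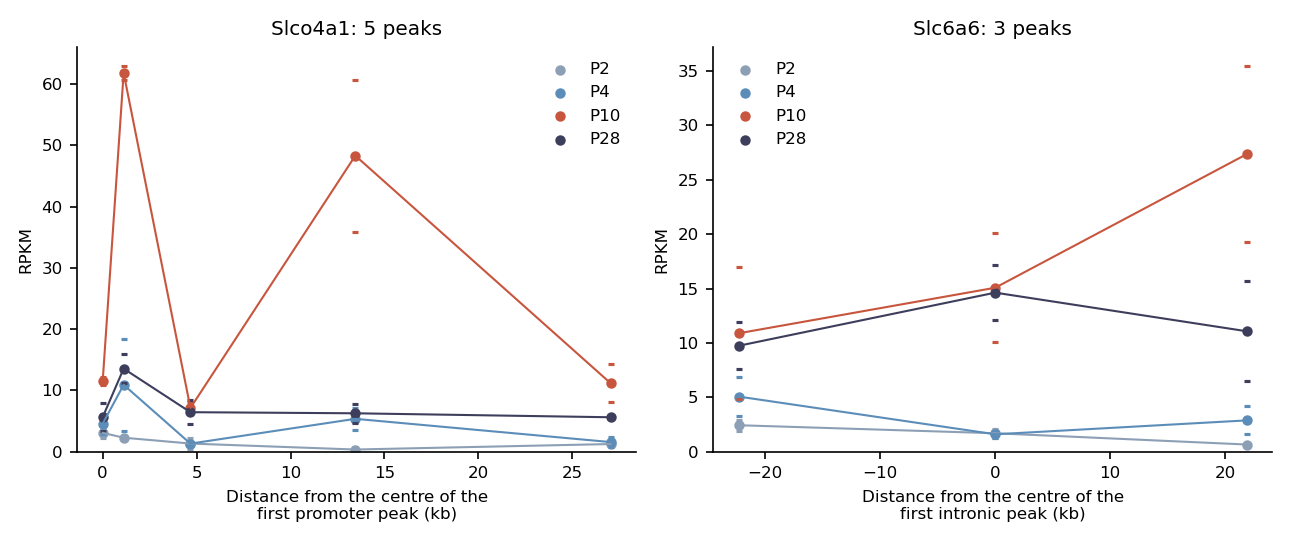
RPKM at the 5 peaks of Slco4a1 (left) and the 3 peaks of Slc6a6 (right) by distance in kb from the centre of a chosen peak, with dots for the mean of 2 libraries, dashes for single libraries and lines that only join peaks of an age. At Slco4a1 both intronic peaks stand high at P10 and drop at P28, and at Slc6a6 the first intronic peak has similar means at P10 and P28, 15.1 and 14.6 RPKM.

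Slc16a6, which encodes a monocarboxylate transporter that exports ketone bodies in zebrafish liver, had a peak in an intron on chromosome 11 at 109471289 to 109471409. It had 2.08 and 6.29 RPKM at P2, 6.30 and 11.8 RPKM at P4, 43.0 and 36.1 RPKM at P10, and 35.8 and 50.1 RPKM at P28. The P10 and P28 libraries overlapped with each other and not with the younger ones. The difference for P28 against P2 was 3.19 ± 0.57 (SE) on the log2 scale, the highest of any solute carrier peak in that comparison, and the call stood without any single library (adjusted p by limma 0.00082). For P10 against P4 the adjusted p by limma was 0.016, or 0.10 without P4 replicate 3, 0.164 and 0.0987 without P10 replicates 1 and 4, and 0.0794 with centred libraries. Its promoter peak was in all 4 lists and had 10.6 and 11.8 RPKM at P28 and 4.42 and 4.72 RPKM at P2. It was called by the F test over all ages (adjusted p by limma 0.035) and between no 2 ages.

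Slc12a9, of the cation-chloride cotransporter family, had a peak 4720 bp upstream of the nearest start, annotated as exonic, with 0.75 and 0 RPKM at P2, 0.756 and 0.850 RPKM at P4, 5.63 and 2.97 RPKM at P10, and 8.30 and 6.82 RPKM at P28. P28 and P2 had 16 reads against 1, a ratio of 16.8 (95% counting interval 2.61 to 705), and the call stood without any single library (adjusted p by limma 0.00064, and 0.131 with the values as deposited). The rise at P10 over P4 (adjusted p by limma 0.029) was lost without P4 replicate 3, P10 replicate 1 or P10 replicate 4 (0.17, 0.298 and 0.0700) and with centred libraries (0.34). Slc4a7 encodes a sodium bicarbonate cotransporter whose loss in mice causes blindness, and its intronic peak on chromosome 14 at 14714272 to 14714468 had no read at P2, 3.22 and 4.35 RPKM at P4, 6.40 and 7.60 RPKM at P10, and 3.93 and 3.32 RPKM at P28. It had 9 reads at P28 against 0 at P2 (adjusted p by limma 0.0024, held without any single library, and 0.0575 by limma-voom). With 3 reads over both P2 libraries as the floor, it was 3.15-fold higher at P28, counting error in the 9 reads not included.

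Other peaks were high at P10 and low both before and after. Slc39a13 encodes an intracellular zinc transporter, and its peak on chromosome 2, 1776 bp upstream of the start at 91072193 to 91072332, had 2.70 and 1.36 RPKM at P2, 1.81 and 2.04 RPKM at P4, 25.9 and 24.1 RPKM at P10, and 3.32 and 2.34 RPKM at P28. P10 exceeded P4 by 3.15 ± 0.49 (SE) on the log2 scale and the level at P28 fell by 2.77 ± 0.49 against P10 (adjusted p by limma 0.00042 and 0.00066). Both calls stood without any single library and with centred libraries. No other solute carrier peak had a higher P10 difference from P4. This peak was in the P10 list only, so it entered the table through the age at which it is high.

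Slc38a1 encodes a sodium-coupled transporter of glutamine and other neutral amino acids. Its intronic peak on chromosome 15 at 96595553 to 96595668 had no read in either P28 library, against 17.7 and 15.1 RPKM at P10. The peak had 0 reads at P28 against 27 at P10 (adjusted p by limma 0.00010). With 3 reads over both P28 libraries as the floor, it was 7.87-fold lower at P28, counting error in the 27 reads not included. At the younger ages it had 0 and 1.64 RPKM at P2 and 2.19 and 9.85 RPKM at P4. A second intronic peak of Slc38a1 had 0.956 and 3.03 RPKM at P28 and 27.2 and 12.3 RPKM at P10, with an adjusted p by limma of 0.0015, or 0.0579 without P10 replicate 1.

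Slc11a1 encodes a divalent metal transporter of macrophage phagosomes, and its promoter peak on chromosome 1 at 74375363 to 74375748 had the largest fall at P28 against P10 among the 75 proximal peaks. It had 2.61 and 7.89 RPKM at P2, 6.58 and 12.9 RPKM at P4, 15.1 and 10.3 RPKM at P10, and 0.803 and 0.848 RPKM at P28. The P28 libraries lay below all others. For P28 against P10 the difference was −2.89 ± 0.54 (SE) on the log2 scale and stood without any single library (adjusted p by limma 0.00098). The fall against P2 had an adjusted p by limma of 0.048 and was lost without P2 replicate 4 (0.378), P10 replicate 1 (0.0667), P10 replicate 4 (0.0727), P28 replicate 3 (0.172) or P28 replicate 4 (0.146). The other Slc11a1 peak, 3290 bp from the start, had 12.1 and 8.80 RPKM at P10 and 10.9 and 6.30 RPKM at P28, with no call. None of the 4 microglia and vessel markers had a peak. As the peaks are of NRL, this does not show whether such cells were in the samples. The cell source of the Slc11a1 signal was not tested.

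Slc25a29 encodes a mitochondrial carrier of basic amino acids, and a peak 10914 bp from its start had 2.23 and 1.12 RPKM at P2, 0.749 and 5.05 RPKM at P4, 9.30 and 12.1 RPKM at P10, and 0.457 and 0.966 RPKM at P28. The P10 libraries had 53 reads and the P28 libraries 3, a P10 to P28 ratio of 15.5 (95% counting interval 5.01 to 77.3), and the fall stood without any single library (adjusted p by limma 0.0010). The higher level at P10 than at P4 (adjusted p by limma 0.019) was lost without P4 replicate 3, P10 replicate 1 or P10 replicate 4 (0.339, 0.0867 and 0.14) and with centred libraries (0.18).

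**Figure D4:**
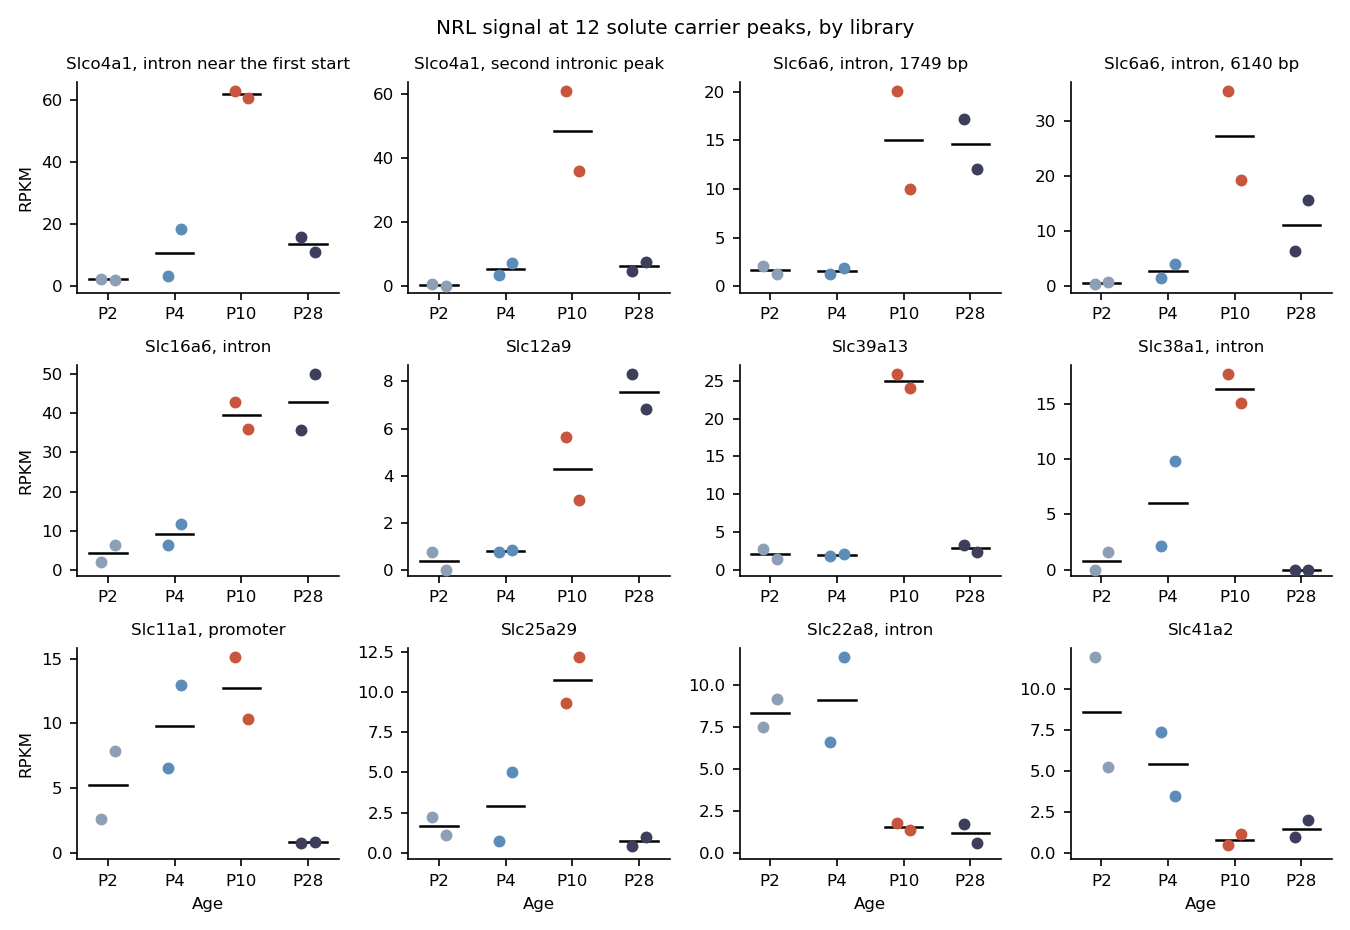
RPKM of each library (points) and the mean of 2 libraries (line) at 12 solute carrier peaks by age. The Slco4a1, Slc39a13, Slc38a1 and Slc25a29 peaks are highest at P10, Slc16a6 and the first Slc6a6 peak are high at P10 and P28, Slc11a1 is lowest at P28, and Slc22a8 and Slc41a2 are lower at P10 and P28 than at P2 and P4.

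Peaks assigned to Slc22a12, which encodes a urate transporter of the kidney, numbered 5, all on chromosome 19 and 11726 to 119346 bp from its start. The nearest of them lies in an intron of Nrxn2, which encodes the synaptic protein neurexin, and none lies within Slc22a12, so the assignment is by distance alone. The peak at 6610054 to 6610226 had 2.91 and 8.80 RPKM at P2, 2.2 and 7.43 RPKM at P4, 27.3 and 30.3 RPKM at P10, and 2.69 and 2.84 RPKM at P28. At P28 it fell by 2.98 ± 0.58 (SE) on the log2 scale against P10, a call that stood without any single library (adjusted p by limma 0.0012, and 0.0751 with the values as deposited). The rise at P10 over P4 had an adjusted p by limma of 0.0054 and was lost without P4 replicate 3 (0.0937), P10 replicate 1 (0.0541) or P10 replicate 4 (0.0531). The peak at 6651107 to 6651289 had 1.38 and 1.04 RPKM at P2, 2.08 and 0 RPKM at P4, 12.9 and 11.6 RPKM at P10, and 3.39 and 1.79 RPKM at P28. The rise at P10 over P4, with 32 reads against 3 and a ratio of 11.1 (95% counting interval 3.46 to 56.4), stood without any single library (adjusted p by limma 0.00092) and was lost with a pseudocount of 0.1 (0.0929). Its fall at P28 against P10 (adjusted p by limma 0.0100) was lost without P10 replicate 1, P10 replicate 4 or P28 replicate 4 (0.0829, 0.0562 and 0.0676) and with centred libraries (0.15).

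Slc9a7, for a sodium-proton exchanger of the Golgi, had a peak 25839 bp upstream with 10.2 and 5.78 RPKM at P10 and no read at P4. With 3 reads over both P4 libraries as the floor, it was 4.14-fold higher at P10, counting error in its 12 reads not included. The adjusted p by limma was 0.0026, and the call was lost without P4 replicate 3. Slc43a2, for a neutral amino acid transporter, had an intronic peak with 2.65 and 0 RPKM at P2, 6.68 and 7.52 RPKM at P4, 29.9 and 39.4 RPKM at P10, and 8.15 and 10.3 RPKM at P28. For P28 against P2 these are 11 reads against 2, with an adjusted p by limma of 0.0083, or 0.219 without P2 replicate 4 and 0.268 by limma-voom.

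A few transporter peaks ran the other way and were higher at the young ages. Slc22a8 encodes an organic anion transporter known from kidney and choroid plexus, and its intronic peak on chromosome 19 at 8597377 to 8597646 had 7.46 and 9.16 RPKM at P2, 6.58 and 11.6 RPKM at P4, 1.75 and 1.39 RPKM at P10, and 1.72 and 0.606 RPKM at P28. The P10 and P28 libraries lay below all P2 and P4 libraries, and the peak was in the P2 and P4 lists only. It fell by 2.15 on the log2 scale at P28 against P2 (SE 0.49, adjusted p by limma 0.0055, and 0.0856 without P28 replicate 4). The fall at P10 against P4 had an adjusted p by limma of 0.0097, or 0.0878 without P10 replicate 1 and 0.109 without P10 replicate 4. With centred libraries both calls held.

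The Slc41a2 peak, 92831 bp from the start of a gene for a magnesium transporter, had 11.9 and 5.22 RPKM at P2, 7.36 and 3.48 RPKM at P4, 0.480 and 1.14 RPKM at P10, and 0.944 and 2.00 RPKM at P28. Its fall at P28 against P2 had an adjusted p by limma of 0.015, or 0.101 without P2 replicate 3 and 0.111 without P28 replicate 3. The fall at P10 against P4 (0.018) was lost without P4 replicate 3, P10 replicate 1 or P10 replicate 4 (0.234, 0.199 and 0.0662). The Slc10a2 peak, 860317 bp from the gene of the ileal bile acid transporter, had 1.42 and 0 RPKM at P28 and 4.62 and 5.24 RPKM at P2 (adjusted p by limma 0.015, or 0.172 without P28 replicate 4). It also fell at P10 against P4, with 2 reads against 17 and an adjusted p by limma of 0.010, or 0.132 without P4 replicate 3 and 0.207 without P10 replicate 4.

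Slc28a3, for a concentrative nucleoside transporter, had a peak 42498 bp upstream with 0.597 and 0 RPKM at P10 and 2.89 and 6.49 RPKM at P4. With 1 read against 18 the P4 to P10 ratio was 17.4 (95% counting interval 2.74 to 724), and the adjusted p by limma was 0.0050, or 0.0922 without P10 replicate 4. The peak 19022 bp downstream of the Slc28a3 start had the opposite order, with 8.63 and 11.1 RPKM at P10 and 0.870 and 5.87 RPKM at P4. Its adjusted p by limma was 0.049, and 0.546 without P4 replicate 3, 0.152 and 0.223 without P10 replicates 1 and 4, and 0.33 with centred libraries.

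Slc24a3, for a sodium/calcium-potassium exchanger, had an intronic peak with 6.46 and 6.83 RPKM at P2 and 6.51 and 11.0 RPKM at P4. It had 7.27 and 8.32 RPKM at P10 and 1.59 and 0.840 RPKM at P28, and so was low at P28 only. Its fall at P28 against P10 (adjusted p by limma 0.0077) held with centred libraries. That call was lost without P10 replicate 1, P10 replicate 4 or P28 replicate 4. For P28 against P2 the peak fell by 1.81 on the log2 scale (SE 0.51, adjusted p by limma 0.021). This call was lost without P2 replicate 4, P28 replicate 3 or P28 replicate 4. Slc39a8, for a zinc and manganese transporter, had the only solute carrier peak called higher at P28 than at P10, with 4.30 and 5.46 RPKM at P28 and 1.75 and 0.693 RPKM at P10. Its 11 reads against 3 gave a ratio of 4.19 (95% counting interval 1.11 to 23.4) and an adjusted p by limma of 0.027. Leaving out P10 replicate 1, P10 replicate 4, P28 replicate 3 or P28 replicate 4 ended that call, at adjusted p of 0.0705, 0.27, 0.0594 and 0.139.

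The strongest of the 146 peaks by mean over all libraries, 29.4 RPKM, lay at the promoter of Slc25a42, the mitochondrial carrier of coenzyme A, and its sequence is printed above. It had 12.8 and 6.56 RPKM at P2, 16.1 and 41.3 RPKM at P4, 59.0 and 58.6 RPKM at P10, and 19.6 and 21.5 RPKM at P28, and was in all 4 lists. The P4 replicates spanned more than the gap between the P28 and P4 means, and the peak was called by the F test over all ages (adjusted p by limma 0.0076) but between no 2 ages. The peak near Slc52a3, the riboflavin transporter, had 31.9 and 43.2 RPKM at P10 and 7.33 and 20.1 RPKM at P4. It was called by the F test over all ages (adjusted p by limma 0.033) but not for P10 against P4 (0.0594) or P28 against P10 (0.0585). The promoter of Slc3a2, the heavy chain shared by several amino acid transporters, had 10.7 and 16.9 RPKM at P28 and 6.08 and 9.19 RPKM at P2, with no call.

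The promoter of Slc27a1, a fatty acid transport protein, had 3.94 and 4.67 RPKM at P2, 7.09 and 14.3 RPKM at P4, 36.2 and 38.7 RPKM at P10, and 9.34 and 9.50 RPKM at P28. Its P10 libraries lay above all others. Its fall at P28 against P10 had an adjusted p by limma of 0.015, or 0.126 without P10 replicate 1, 0.127 without P10 replicate 4, 0.0969 without P28 replicate 3 and 0.0938 without P28 replicate 4. P10 exceeded P4 with an adjusted p by limma of 0.025, or 0.0847 without P4 replicate 3, 0.172 and 0.177 without P10 replicates 1 and 4, and 0.083 with centred libraries. Among peaks of Slc4a5, for a sodium bicarbonate cotransporter, the one 6302 bp upstream was strongest, with 1.88 and 5.68 RPKM at P2, 3.79 and 14.9 RPKM at P4, 38.8 and 36.3 RPKM at P10, and 8.67 and 7.33 RPKM at P28. It was called for P10 against P4 (adjusted p by limma 0.018) and P28 against P10 (0.015), and neither call held with centred libraries (0.091 and 0.051). The first was lost without P4 replicate 3, P10 replicate 1 or P10 replicate 4 (0.19, 0.138 and 0.101), and the second without P10 replicate 1, P10 replicate 4 or P28 replicate 4 (0.117, 0.0885 and 0.0727).

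The 3 peaks at Slc25a33, the mitochondrial pyrimidine nucleotide carrier, lie on chromosome 4 at the promoter, 19690 bp and 45019 bp upstream. The promoter peak, whose sequence is printed above, had 6.04 and 7.52 RPKM at P10 and 1.39 and 2.35 RPKM at P4 (adjusted p by limma 0.035). Without P4 replicate 3, P10 replicate 1 or P10 replicate 4 that call was lost (0.242, 0.148 and 0.214), as it was with centred libraries (0.36). The farthest peak had 4.49 and 1.83 RPKM at P28 and 12 and 12.8 RPKM at P10 (adjusted p by limma 0.016). It lost the call without P10 replicate 1, P10 replicate 4 or P28 replicate 4 (0.102, 0.107 and 0.233) and with centred libraries (0.0917). The peak between had 6.85 and 9.30 RPKM at P10 and 1.58 and 1.77 RPKM at P4 (adjusted p by limma 0.026). That call was lost without P4 replicate 3, P4 replicate 4, P10 replicate 1 or P10 replicate 4 (0.184, 0.0503, 0.105 and 0.173) and with centred libraries (0.28).

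By family, 5 of the 28 peaks of the mitochondrial Slc25 carriers rose at P10 against P4 and none fell, with a median log2 difference of 0.99. Of the 19 peaks of inorganic ion carriers 8 rose and none fell (median 1.25), and of the 34 in the mixed group of organic ion, nucleoside, lipid, vitamin and phosphate carriers 16 rose and 3 fell (median 1.39). That last group holds the 5 peaks each of Slco4a1 and Slc22a12. Amino acid and peptide carriers had 2 of 19 called higher, transmitter, taurine and glycine carriers 2 of 12, metal ion carriers 1 of 19 higher and 1 lower, sugar and monocarboxylate carriers 1 of 6, and nucleotide sugar carriers none of 9. Medians over these groups ranged from 0.35 for metal ion carriers to 1.39, beside 0.73 for all peaks. Of all peaks 15.6% were called higher and 1.51% lower, and the shares called higher of mitochondrial (17.9%) and transmitter carriers (16.7%) lay near that.

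With centred libraries the calls for P10 against P4 were 5 higher and 5 lower in the mixed group, 2 higher among transmitter carriers, 1 higher among inorganic ion carriers, 1 higher and 1 lower among metal ion carriers and none in the other 4 groups. Places differ between the groups, with 21 of 28 Slc25 peaks and 4 of 19 inorganic ion carrier peaks within 1 kb of a start site. For P28 against P10, 9 of 34 in the mixed group, 8 of 19 inorganic ion, 4 of 28 mitochondrial, 4 of 19 amino acid, 3 of 19 metal ion and 2 of 12 transmitter carrier peaks fell, beside 20.7% of all peaks. With centred libraries the calls for that comparison were 1 higher and 4 lower in the mixed group, 0 and 1 among inorganic ion, 1 and 2 among mitochondrial, 0 and 2 among amino acid, 2 and 2 among metal ion and 1 and 2 among transmitter carriers, beside 4.28% and 8.56% of all peaks. For P28 against P2, 4 of the 12 transmitter carrier peaks were called higher, beside 9.64% of all peaks. These were 2 at Slc6a6, the taurine transporter, and 2 at Slc6a15, a neutral amino acid transporter of neurons. The group was set by family number, and Slc1a7, Slc6a5 and Slc6a9 in it had no call in that comparison. In the mixed group 6 of 34 rose and 2 fell, and among inorganic ion carriers 4 of 19 rose and 1 fell. Metal ion carriers had 0 higher and 2 lower of 19, and each remaining group 1 or 2 higher. With centred libraries the calls were 2 higher among transmitter, 3 higher and 1 lower among inorganic ion, and 2 and 3 in the mixed group. Metal ion carriers had 3 lower, amino acid and sugar carriers 1 higher each, beside 3.27% higher and 7.26% lower of all peaks. The Slc6a15 promoter peak (adjusted p by limma 0.0076) lost its call without P2 replicate 4 (0.0921), with centred libraries (0.0652) and by limma-voom (0.0976). The exonic Slc6a15 peak (0.036) lost it without P2 replicate 3 or P28 replicate 4 (0.238 and 0.202), without P10 replicate 1 or 4 (0.0568 and 0.0577), with centred libraries (0.159) and by limma-voom (0.377).

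**Figure D5:**
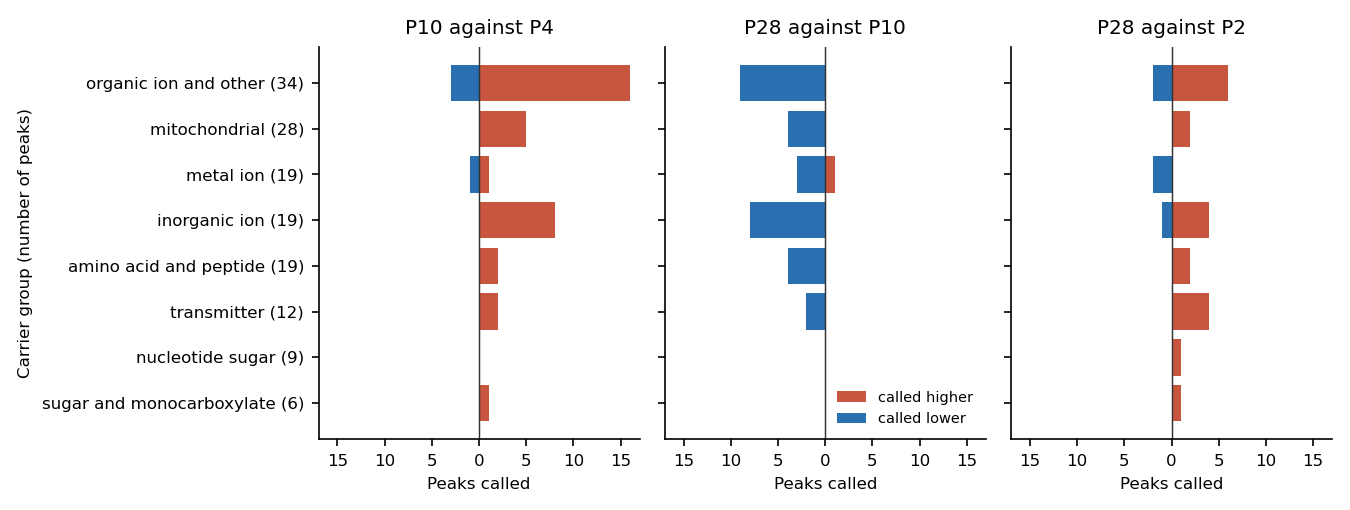
Number of solute carrier peaks called higher (red, right of 0) and lower (blue, left of 0) by limma in 3 age comparisons, for 8 groups of carrier families with the number of peaks in brackets. For P10 against P4 the mixed organic ion group has the most, 16 higher and 3 lower, and inorganic ion carriers follow with 8 higher.

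Of 20 solute carrier genes listed for a known place in retinal physiology or disease, 10 had a peak, beside 109 of the 385 protein-coding solute carrier genes (28.3%). Those without one were Slc17a7, Slc1a2, Slc1a3, Slc12a5, Slc32a1, Slc16a3, Slc38a8, Slc25a1, Slc39a12 and Slc66a1. Among them are the vesicular glutamate transporter of photoreceptor terminals (Slc17a7) and the glial glutamate transporter (Slc1a3). The list was chosen with earlier results of these data known, so its count does not measure how often such genes are bound. Beyond Slco4a1, Slc6a6, Slc4a5 and Slc4a7, the list held the photoreceptor and bipolar cell glutamate transporter Slc1a7. Its promoter peak had 0.777 and 4.70 RPKM at P2, 4.70 and 11.5 RPKM at P4, 9.73 and 6.93 RPKM at P10, and 5.74 and 10.1 RPKM at P28, with no call and with overlap between P4, P10 and P28.

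Slc24a2, for the sodium/calcium-potassium exchanger of cones, had 1 peak 137706 bp upstream with 6.45 and 5.11 RPKM at P10 and 2.23 and 0 RPKM at P4. With 14 reads against 3 the ratio was 4.83 (95% counting interval 1.35 to 26.2) and the adjusted p by limma 0.014, lost without P4 replicate 4, P10 replicate 1 or P10 replicate 4 (0.0809, 0.126 and 0.0634) and with centred libraries. The glycine transporter Slc6a9 had 3 peaks. Its intronic one had 2.21 and 3.51 RPKM at P28 and 15.8 and 13.4 RPKM at P10 (adjusted p by limma 0.012, or 0.107, 0.0639 and 0.0917 without P10 replicate 1, P10 replicate 4 and P28 replicate 3). Slc7a14, mutated in human retinitis pigmentosa, had 0.630 and 2.66 RPKM at P28 and 3.20 and 2.54 RPKM at P10 at 1 intronic peak, and Slc38a7, a glutamine transporter, had 2.36 and 2.85 RPKM at P28 and 2.46 and 1.24 RPKM at P2 at its promoter. Neither was called.

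The Slc4a3 peak lies 357832 bp from the gene of this anion exchanger, whose loss in mice impairs vision, and had 6.52 and 9.47 RPKM at P10 and 0 and 3.94 RPKM at P4. Its call for P10 against P4 (adjusted p by limma 0.034) was lost without P4 replicate 3, P10 replicate 1 or P10 replicate 4 (0.498, 0.0919 and 0.158) and with centred libraries (0.23). The promoter peak of Slc4a7 printed above had 2.02 and 1.52 RPKM at P2, 2.03 and 1.71 RPKM at P4, 7.56 and 6.49 RPKM at P10, and 2.48 and 1.31 RPKM at P28. It was called for both steps (adjusted p by limma 0.027 for P10 against P4 and 0.021 for P28 against P10), and with centred libraries for neither (0.32 and 0.17). The first call was lost without P4 replicate 3, P10 replicate 1 or P10 replicate 4 (0.109, 0.198 and 0.122), and the second without P10 replicate 1, P10 replicate 4 or P28 replicate 4 (0.165, 0.0985 and 0.196). At the Slc25a5 promoter, for a mitochondrial ADP/ATP carrier, the peak with the MAF core had 4.86 and 9.40 RPKM at P10 and 0 and 4.89 RPKM at P4, with no call.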

How the data were processed

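Anti-NRL CUT&RUN libraries of mouse retina at 4 ages were measured. Per the submitters' processing notes MACS2 2.2.5, Bowtie2 2.3.5.1 and bedtools 2.29.0 were among the tools, beside Picard 2.20.8, Trimmomatic 0.38 and SAMtools 1.9, and the mouse build was GRCm38.p6, with no role or order given. The authors deposited RPKM for 8996 peaks in 8 libraries, as the values show, and 1 peak list per age with a signal and a score of the authors' own. In all but the first column the values had been divided by the widths of other peaks, shifted by 39 rows per column. Whole reads were recovered for 100% of 71968 values (tolerance 0.001 of a read; 273 widths were inferred as the smallest that gave whole reads), and RPKM was rebuilt with each peak's own width.

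Ages were compared as log2(RPKM + 1) with limma 3.58.1 (R 4.3.3, trend and robust empirical Bayes, 4 ages in 1 fit) and Benjamini-Hochberg adjustment over all peaks. On simulated data for P10 against P4 with 8996 peaks, of which 200 were changed 4-fold, 79 were called (39.5%) with 0 false calls. The changed peaks were drawn only from those at or above the median read total. Replicate noise was set to a fixed level, and no table-wide shift between libraries was simulated. The 0 false calls therefore do not carry over to the real libraries. Alternatives were a pseudocount of 0.1, a minimum of 10 reads, centred libraries, limma-voom on the recovered reads with TMM factors coded for this purpose, the values as deposited, each library left out, and a replicate block. Peaks named in the text were those past the threshold with the 5 highest and 5 lowest changes per comparison (libraries not overlapping, 1 peak per gene), the 8 with the highest mean, the 5 genes with the most peaks and listed retina genes; others were named after their values were seen. The members and lists were chosen with earlier results of these data known. RefSeq tables of GRCm38.p6 gave gene types and promoter sequences. The gene identifiers of all 146 members matched, but not every start-site peak overlapped a promoter window. Counting intervals on reads cover counting error only.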

Additional observations from a re-analysis of the deposited data

How the results depend on the processing

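With a pseudocount of 0.1 the solute carrier calls numbered 1 for P4 against P2, 1 for P10 against P4, 10 for P28 against P10, 9 for P28 against P2 and 32 for any age. With centred libraries they numbered 15, 18 and 16 for the last 3 pairs and 30 for any age. limma-voom gave 20 for P10 against P4, 12 for P28 against P2 and 49 for any age, and the values as deposited, with other peaks' widths, gave 9, 12, 7 and 37. Leaving out 1 library at a time gave 0 to 16 calls for P4 against P2, 8 to 56 for P10 against P4, 6 to 43 for P28 against P10, 13 to 36 for P28 against P2 and 43 to 90 for any age. A minimum of 10 reads changed no count. Shares of all peaks are not given here for the pseudocount of 0.1, the values as deposited or the fits with 1 library left out. Those counts therefore do not tell solute carrier peaks from the rest of the table. Of the peaks, 61.0% lay within 3 kb of a start site. The cause of the changes between settings was not tested, and the fits with 1 library left out also hold fewer libraries.

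Same-numbered libraries deviated together only weakly (r = 0.085 for P2 and P4, 0.050 for P2 and P28, 0.029 for P4 and P28, over replicates 3 and 4). The labels do not say whether equal numbers mark paired samples, and these values do not settle it. With the replicate block, P4 against P2 gave 2 calls and P28 against P2 gave 25, against 0 and 17 in the same 6 libraries without the block, a fit added after seeing the data. No paired analysis was possible because P10 shares only replicate 4 with the other ages, as far as comparisons with P10 go. Of the 25 peak comparisons named by the rule none reversed, 11 lost the call with the values as deposited and 13 with the pseudocount of 0.1.

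At a median of 63 reads per peak over all libraries, small differences could not be detected.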
